A study of Rattus norvegicus with 8 samples.

Results

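Long non-coding RNAs (lncRNAs) that lie over named genes made up 8544 of the 14625 lncRNA transcripts measured in rat femur bone around titanium implants. A transcript was counted when its span on the Rnor_6.0 assembly overlapped by at least 1 bp the span of a gene with a symbol other than a provisional one (clone names and names starting with LOC, RGD or NEWGENE), on either strand. Of the remaining transcripts, 5947 overlapped no named gene, and 134 from 3 assembled loci were left out by the same rule, 0 of which overlapped a named gene. The compared bones came from 4 hyperlipidemic libraries and 4 normal libraries. All were femora of male Wistar rats of 12 to 13 weeks that carried implants in both shafts, taken 10 days after implantation with a margin of 1 mm. The hyperlipidemic rats had eaten a high-fat diet and the normal rats a normal diet for 8 weeks, and no allele or further agent is named. Bone without an implant and blood lipids were not analysed here, and the labels do not say whether a library held RNA of 1 animal or of several, so p-values measure the spread between these libraries.

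Transcripts of this kind are described by how they sit relative to a gene. They can start inside an intron, run antisense to the gene, bridge neighbouring genes, extend past its end or be a non-coding isoform of the gene itself, and some act on the gene in cis while others are precursors of small RNAs. Bone around an implant mixes bone-forming osteoblasts, bone-resorbing osteoclasts and marrow, where red cells, platelets, granulocytes and B cells are made, and many regulators of these lineages are long genes with room for intronic transcripts. The deposited tables give spans without strand and without exons, so sense and antisense overlap could not be told apart, nor exon from intron.

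The clearest identities in the class are those of transcripts over microRNA genes, and the mature microRNAs are shown for the overlaps in which the assembler gave lncRNA and microRNA gene the same locus number. In all, 20 of the transcripts overlapped 18 microRNA genes, 5 of them with a shared locus number, and 15 of the 18 genes had an entry among RefSeq's mature microRNAs (GRCr8 annotation). The sequences below run 5′ to 3′, with capitals for the seed, bases 2 to 8, which pairs with target RNAs. miR-144 is known as an erythroid microRNA, miR-675 is cut from the H19 RNA, miR-181b is known for roles in lymphocytes, and let-7d belongs to the let-7 family. miR-98 is added because its 5p seed was the only one of 27 distinct seeds among 28 listed mature sequences that was found more than once, being shared with let-7d.
rno-miR-144-3p: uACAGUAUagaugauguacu
rno-miR-144-5p: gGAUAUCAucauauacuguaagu
rno-miR-675-5p: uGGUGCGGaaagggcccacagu
rno-miR-675-3p: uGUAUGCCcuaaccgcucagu
rno-miR-22-3p: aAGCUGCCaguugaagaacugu
rno-miR-22-5p: aGUUCUUCaguggcaagcuuua
rno-miR-181b-5p: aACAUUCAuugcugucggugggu
rno-miR-181b-1-3p: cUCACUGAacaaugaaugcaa
rno-let-7d-5p: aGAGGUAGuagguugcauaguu
rno-let-7d-3p: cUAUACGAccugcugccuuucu
rno-miR-98-5p: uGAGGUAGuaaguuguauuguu

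The miR-144 transcript, MSTRG.19954.1 (chr10:65290420-65291772, also reaching Eral1), had 12.1, 10.3, 21.6 and 20.3 FPKM (fragments per kilobase, scaled to the library's total) in hyperlipidemic bone, against 17.6, 8.08, 11.8 and 18.0 FPKM in normal bone. The groups overlapped, and the log2 change (hyperlipidemic minus normal) was 0.21 ± 0.53 (SE), with an adjusted p of 0.873 by limma. The let-7d transcript, MSTRG.51080.1 (chr17:16409496-16422450), had 4.70, 3.27, 8.54 and 5.21 FPKM in hyperlipidemic bone, against 0.598, 2.15, 5.23 and 2.75 FPKM in normal bone. Again the groups overlapped, with a log2 change of 1.24 ± 0.78 and an adjusted p of 0.690. The miR-675 transcript, MSTRG.11236.1 (chr1:215744408-215747058), was at 6.77, 11.2, 0 and 0.0300 FPKM in hyperlipidemic bone and at 4.92, 1.23, 4.69 and 0 FPKM in normal bone. It was therefore near 0 in 2 of 4 hyperlipidemic and 1 of 4 normal libraries. The miR-181b transcript, MSTRG.32432.1, averaged 2.12 ± 0.288 FPKM in hyperlipidemic bone and 1.89 ± 1.32 FPKM in normal bone (SD, n = 4 each). The miR-22 transcript, MSTRG.19161.1, was listed at 0 in hyperlipidemic bone. In normal bone it had 0, 1.86, 0 and 0 FPKM, so its mean of 0.466 ± 0.932 FPKM rested on replicate 2. The Mir22 gene, which shares its locus number, ranged over 1.71 to 3.27 FPKM in hyperlipidemic and 1.60 to 4.82 FPKM in normal bone. The transcript that spans miR-98 and let-7f-2, MSTRG.134813.27, averaged 0.0162 ± 0.0323 FPKM in hyperlipidemic bone and 2.43 ± 4.83 FPKM in normal bone. Its normal mean rested on replicate 3, at 9.68 FPKM. Of the 20 transcripts over microRNA genes, 10 had a log2 change above 0 and none was called. These values are those of the long transcript, and mature microRNAs were not measured here.

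The 8544 transcripts lay over 3800 gene loci with 3792 symbols. Most, 7887, overlapped 1 named gene, and 657 overlapped several, up to 19. By position, 6729 lay wholly inside the gene they overlapped longest, 1300 reached partly beyond it and 515 covered it. The median span was 3148.5 bp, between 221 and 1697488 bp. In 2578 cases the lncRNA carried the locus number of its gene, 5843 had another number, and 123 were annotated transcripts without one. Where numbers are shared, lncRNA and gene values may rest on the same fragments, and how the deposited gene values were formed was not tested. The let-7d gene had 4.70, 3.27, 8.54 and 5.22 FPKM in hyperlipidemic bone and 0.598, 2.16, 5.25 and 2.75 FPKM in normal bone, almost the values of MSTRG.51080.1 given above. Gene names include 142 of the Rn50_ or Rn60_ kind, 29 that spreadsheet dates had turned into 5-digit numbers and 3 left blank.

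Libraries differed in how much of this class they held. The share of these transcripts listed at 0 FPKM was 17.6%, 13.4%, 35.1% and 27.2% in hyperlipidemic libraries 1 to 4, against 60.2%, 14.2%, 29.6% and 62.7% in normal libraries 1 to 4. Normal libraries 1 and 4 stood apart with most of the class at 0. Over the whole lncRNA table the number at 0 averaged 4223 ± 1453 in hyperlipidemic and 6795 ± 3244 in normal bone (SD, n = 4 each), with a two-sided exact permutation p of 0.229 (adjusted over 2 library measures, 0.400; the smallest that 70 assignments allow is 0.0286). Among the genes, defining markers placed the tissue as bone with marrow: Col1a1 ranged over 518 to 1055 FPKM in hyperlipidemic and 1252 to 1942 FPKM in normal bone, and the erythroid Alas2 over 160 to 351 FPKM in hyperlipidemic and 147 to 302 FPKM in normal bone. Summed, the 19 erythroid genes ranged over 7512 to 15060 FPKM in hyperlipidemic and 6345 to 8173 FPKM in normal bone. All 19 had a log2 change above 0, as had 15 of 15 megakaryocyte genes, against 65.0% of all genes tested. The osteoclast marker Ctsk ranged over 56.4 to 149 FPKM in hyperlipidemic and 192 to 390 FPKM in normal bone. Of 18 osteoclast genes tested 7 lay above 0. The fat cell marker Adipoq ranged over 4.79 to 47.2 FPKM in hyperlipidemic bone and 0 to 0.0994 FPKM in normal bone. The summed list of 22 adipocyte and lipid genes ranged over 172 to 470 FPKM in hyperlipidemic and 94.2 to 152 FPKM in normal bone, the 9 chondrocyte genes over 10.5 to 82.4 FPKM in hyperlipidemic and 0.822 to 7.98 FPKM in normal bone, and the 27 osteoblast and bone matrix genes over 1583 to 2648 FPKM in hyperlipidemic and 3019 to 4764 FPKM in normal bone. Of the genes in these lists 0 were at 0 in all 8 libraries, and the muscle marker Mylpf ranged over 0 to 14.2 FPKM in hyperlipidemic bone and was listed at 0 in the 4 normal libraries. The part of these markers and of the values at 0 in the lncRNA results was not tested.

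**Figure D1:**
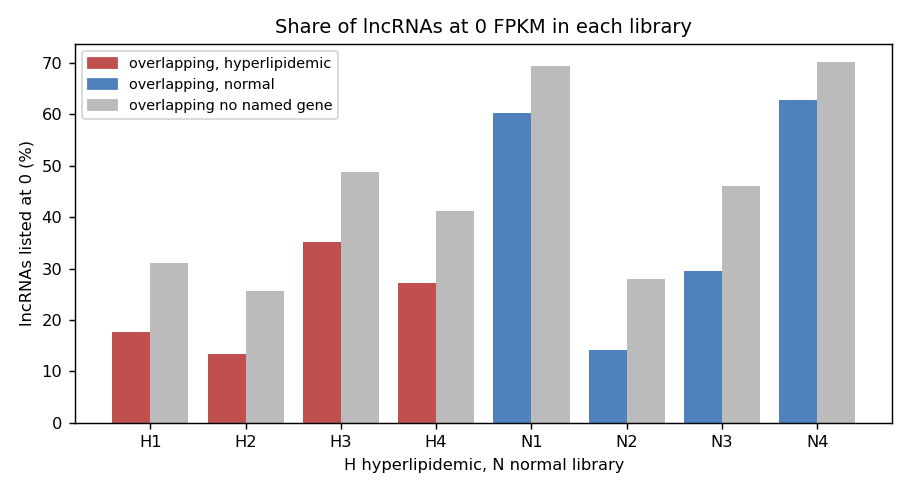
Percentage of lncRNAs listed at 0 FPKM in each library, for transcripts over named genes (coloured, hyperlipidemic H1 to H4 and normal N1 to N4) and for those over none (grey). Normal libraries 1 and 4 have 60.2% and 62.7% of the overlapping transcripts at 0, above the other 6 libraries, and the grey bars are higher than the coloured ones in each library.

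Of 8485 overlapping transcripts that passed a mean of 0.1 FPKM, 3 were higher and 1 was lower in hyperlipidemic bone at an adjusted p under 0.05 (limma, all lncRNAs fitted together). That is 0.0471%, against a background of 0.0843% over all 14233 lncRNAs tested (0.0562% higher and 0.0281% lower), so the class held no larger share of calls than the table. At an unadjusted p under 0.05 stood 645 of them (7.60%, against 7.37% of all). Without overlap between the groups, 267 lay higher (3.15%, against 2.93% of all) and 64 lower (0.754%, against 0.766%). The test in the authors' deposited table, whose method no source used here names, had 245 higher (2.87%, against 2.58% of all lncRNAs) and 353 lower (4.13%, against 4.53%) at p under 0.05. At q under 0.05 the authors' deposited table had 0 of the class, with a smallest q of 0.332, and 1 of all lncRNAs.

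The strongest higher call was MSTRG.52637.1 (chr17:43677938-43779128), a 101191 bp span in the histone cluster that covers Hist1h2bq, which encodes an H2B core histone, and Hist1h1d, a linker histone. It had 246, 165, 183 and 215 FPKM in hyperlipidemic bone, against 2.90, 18.3, 33.7 and 7.46 FPKM in normal bone. The lowest hyperlipidemic value lay well above the highest normal value. Means were 202 ± 35.9 FPKM in hyperlipidemic and 15.6 ± 13.7 FPKM in normal bone (SD, n = 4 each), a 13.0-fold ratio, and the log2 change was 4.20 ± 0.61 (adjusted p = 0.00362). The gene locus Hist1h2bq, which shares its number, had 240, 162, 191 and 225 FPKM in hyperlipidemic and 64.4, 163, 133 and 167 FPKM in normal bone. Its groups overlapped (log2 change 0.70, adjusted p = 0.371), and Hist1h1d had a log2 change of 0.90 (adjusted p = 0.260). In each hyperlipidemic library the transcript and the gene stood at nearly the same FPKM, while in each normal library the gene stood higher. Without normal replicates 1 and 4, a fit chosen after seeing the data, the log2 change was 3.00 and its adjusted p 0.288.

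MSTRG.97162.3 (chr5:24410863-24420338) covers Tp53inp1, a p53-induced stress gene with a role in autophagy. It had 31.5, 12.1, 45.6 and 39.8 FPKM in hyperlipidemic bone, against 0.00160, 1.76, 2.02 and 0 FPKM in normal bone, with no overlap. The log2 change was 6.02 ± 1.01 (adjusted p = 0.0174), and the call ended without hyperlipidemic replicate 1, 3 or 4 (adjusted p 0.0579, 0.205 and 0.106). A second transcript of the locus, MSTRG.97162.4, has the same start and ends 1 bp earlier, and had 4.73, 0.583, 0.796 and 2.28 FPKM in hyperlipidemic bone, against 13.2, 13.2, 30.9 and 0 FPKM in normal bone. High values of the pair thus fell on different transcripts in the groups. Their sum was 36.3, 12.7, 46.4 and 42.1 FPKM in hyperlipidemic bone and 13.2, 14.9, 32.9 and 0 FPKM in normal bone, so the groups overlapped. Summed over its 6 lncRNAs the locus had a log2 change of 1.44 ± 0.56 with an adjusted p of 0.631. The gene value of Tp53inp1, whose locus number they share, had a log2 change of 1.10 (adjusted p = 0.325).

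MSTRG.25138.3 (chr11:61466512-61530695) lies inside Naa50, an N-terminal acetyltransferase, and reaches Usf3, a transcription factor gene. It had 11.2, 10.3, 12.5 and 12.7 FPKM in hyperlipidemic bone, against 0, 1.84, 0 and 0 FPKM in normal bone, with no overlap. The log2 change was 5.81 ± 1.06 (adjusted p = 0.0424). It was no longer called without any one of the 4 hyperlipidemic libraries or without normal replicate 3, with adjusted p between 0.0507 and 0.282. Naa50 itself had 9.05, 6.36, 11.8 and 8.79 FPKM in hyperlipidemic and 6.24, 5.28, 9.15 and 2.36 FPKM in normal bone, with overlapping groups. In the bulk bone, fewer cells of a type and less RNA per cell cannot be told apart.

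**Figure D2:**
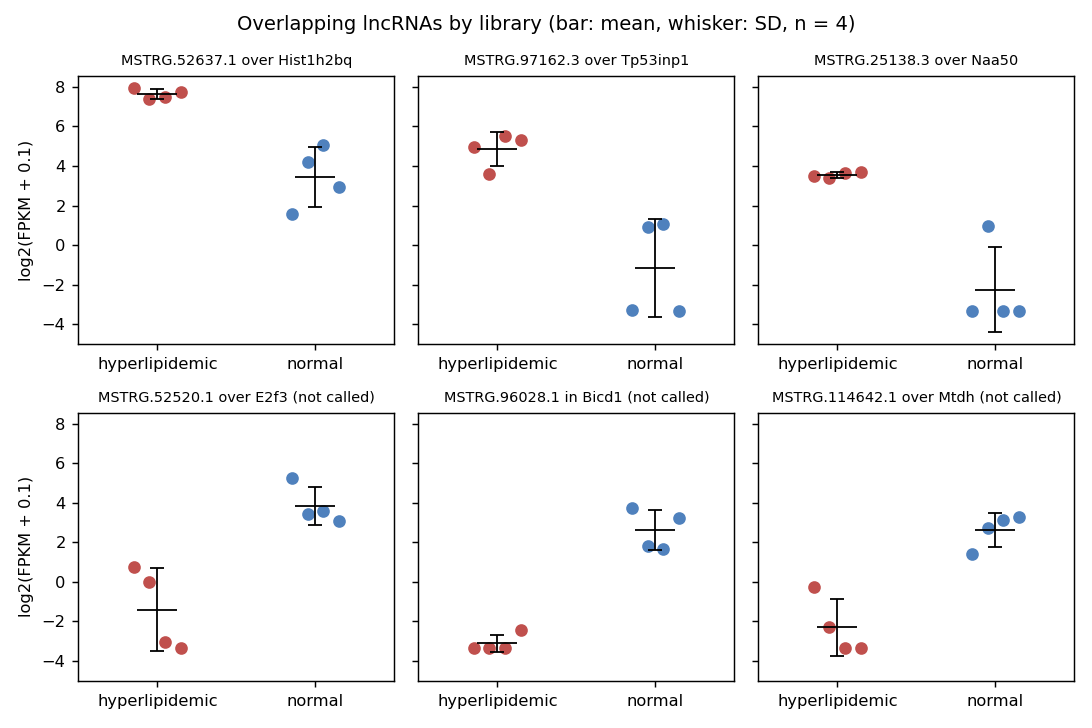
log2(FPKM + 0.1) of the 3 transcripts called higher and of 3 lower ones that were not called (over E2f3, Bicd1 and Mtdh), for 4 hyperlipidemic (red) and 4 normal (blue) libraries; bars are means and whiskers SD. MSTRG.52637.1 lies at 165 to 246 FPKM in hyperlipidemic bone against 2.90 to 33.7 FPKM in normal bone, and the groups are apart in each panel.

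Next in p among the higher transcripts, none of them called, were 7 over Dcaf12 (a substrate receptor of a ubiquitin ligase), Nmnat3 (mitochondrial NAD synthesis), Fam65b (an inhibitor of RhoA), Gatad1, Prdx3 (a mitochondrial peroxidase), Top2b (a DNA topoisomerase) and Slc44a1 (a choline transporter). Their log2 changes lay between 4.39 and 5.62 and their adjusted p between 0.137 and 0.270. MSTRG.124929.2, inside Nmnat3, had 4.84, 2.58, 13.2 and 3.22 FPKM in hyperlipidemic bone and was listed at 0 in the 4 normal libraries. The groups overlapped for the Gatad1 and Top2b transcripts: MSTRG.88044.2 over Gatad1 had 23.3, 6.92, 15.8 and 12.0 FPKM in hyperlipidemic and 0, 8.91, 0 and 0 FPKM in normal bone, while ENSRNOT00000076754, inside Top2b, had 25.03, 13.4, 37.8 and 27.9 FPKM against 0.489, 2.02, 14.8 and 0 FPKM. Of the 7 genes beneath, Fam65b had a log2 change of -0.09 and the other 6 were between 0.28 and 1.38, with adjusted p of at least 0.168.

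Next in p among the lower transcripts stood 9 over E2f3 (a cell cycle transcription factor), Bicd1 (a dynein adaptor), Mtdh, Ptpn6 (the phosphatase SHP-1 of blood cells), Rn60_12_0123.1, Wdfy1, Mss51, Igkv8-34 (an immunoglobulin light chain segment) and Snap23 (a membrane fusion protein). MSTRG.52520.1, which reaches into E2f3 (chr17:36346694-36438743), had 1.61, 0.898, 0.0201 and 0 FPKM in hyperlipidemic bone, against 37.5, 10.7, 11.8 and 8.38 FPKM in normal bone. Its groups were apart, and with a log2 change of -5.23 ± 1.01 it missed the threshold at an adjusted p of 0.0628. Summed with the other lncRNA of its locus it was called lower (log2 change -4.41, adjusted p = 0.0206). MSTRG.96028.1, inside Bicd1, had 0, 0, 0 and 0.0824 FPKM in hyperlipidemic bone, against 13.1, 3.42, 3.11 and 9.32 FPKM in normal bone (log2 change -5.72, adjusted p = 0.0885). MSTRG.114642.1, which reaches into Mtdh, had 0.726, 0.107, 0 and 0 FPKM in hyperlipidemic bone, against 2.56, 6.50, 8.68 and 9.75 FPKM in normal bone (log2 change -4.94, adjusted p = 0.145). MSTRG.94464.1, inside Ptpn6, had 1.13, 0.872, 0 and 0.264 FPKM in hyperlipidemic bone, against 9.59, 4.26, 6.61 and 9.71 FPKM in normal bone (log2 change -3.99, adjusted p = 0.232). E2f3, Bicd1 and Ptpn6 had log2 changes of 0.11, -0.02 and 0.12 as genes. In MSTRG.27985.1 over Rn60_12_0123.1 the gene shared both the locus number and the direction, with log2 changes of -2.50 for the lncRNA (adjusted p = 0.273) and -2.36 for the gene (adjusted p = 0.0503).

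Over the whole class, log2 changes were mostly above 0. The median was 0.78, against 0.78 over all lncRNAs tested, and 5976 of 8485 (70.4%) lay above 0, against 69.0% of all. This offset differed between sets of transcripts, sets of libraries and scalings, and the part of the values at 0 was not tested. Over the 1708 transcripts above 0 in all 8 libraries the median was 0.21 (0.19 over all lncRNAs of that kind), and without normal replicates 1 and 4 it was 0.05 (0.09 over all). Quantile normalization brought it to 0.28 (0.26 over all). Transcripts inside genes had a median of 0.83 (6676 tested), those partly beyond it 0.68 (1297 tested) and those covering it 0.36 (512 tested).

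Alternative transcripts of a locus could point in opposite directions. Of 1044 loci with several tested transcripts of the class, 508 (48.7%) had log2 changes of both signs, against 50.3% of all 1762 lncRNA loci with several tested transcripts. At Dcaf12, MSTRG.98206.1 had 33.2, 19.2, 45.7 and 39.6 FPKM in hyperlipidemic bone and 0, 12.0, 2.50 and 0 FPKM in normal bone, with no overlap. MSTRG.98206.2, 6067 bp against 6123 bp in span, had 8.09, 2.99, 2.69 and 8.04 FPKM in hyperlipidemic bone and 23.7, 14.3, 15.7 and 9.69 FPKM in normal bone, with no overlap the other way. Neither was called (log2 changes 5.46 and -1.63, adjusted p 0.137 and 0.608). Their sum was 41.2, 22.2, 48.4 and 47.6 FPKM in hyperlipidemic bone, against 23.7, 26.3, 18.2 and 9.69 FPKM in normal bone, and its log2 change was 1.06 ± 0.46 (adjusted p = 0.664). With FPKM summed by locus, a fit chosen after seeing the data, 4 loci with these transcripts were called, 2 in each direction, among them the loci of Hist1h2bq and Naa50, higher, and E2f3, lower (background 0.0652% of 10736 loci). How the assembler divided fragments between transcripts of nearly the same span was not tested, and their exons are not given.

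**Figure D3:**
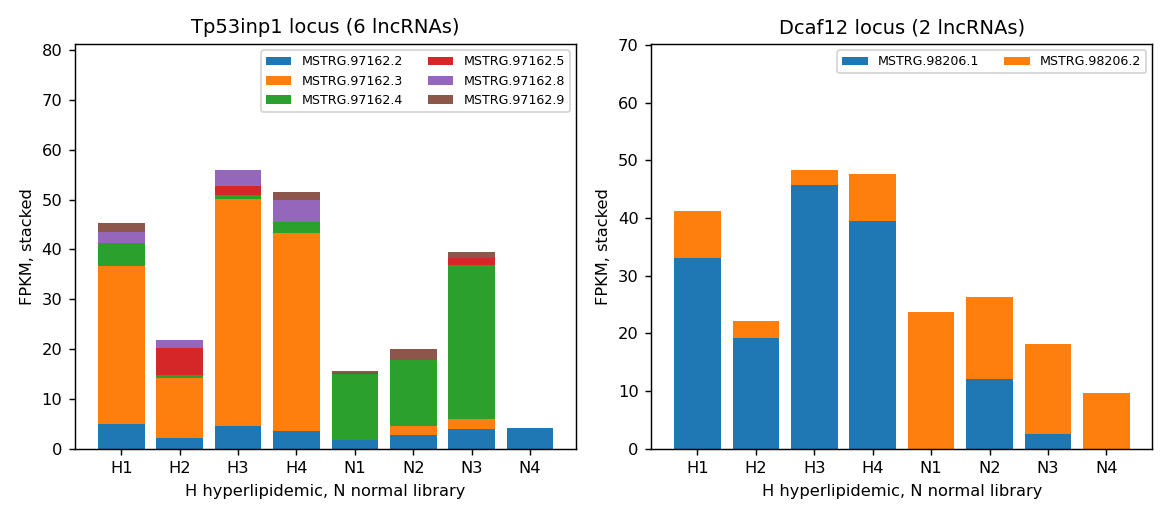
FPKM of the lncRNAs of the Tp53inp1 locus and the Dcaf12 locus, stacked by library (H1 to H4 hyperlipidemic, N1 to N4 normal). MSTRG.97162.3 and MSTRG.98206.1 fill most of the hyperlipidemic bars and MSTRG.97162.4 and MSTRG.98206.2 most of the bars of normal libraries 1 to 3, while total heights overlap between the groups.

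To ask whether an lncRNA differed apart from its gene, the ratio of the lncRNA to the gene it overlapped longest was fitted for 8214 transcripts whose gene averaged at least 0.5 FPKM. MSTRG.52637.1 relative to Hist1h2bq was higher in hyperlipidemic bone, with a log2 change of the ratio of 3.49 ± 0.44 (adjusted p = 0.0210), and was the 1 call among these transcripts (background 0.0322% of 9307 pairs). It was lost without hyperlipidemic replicate 2 or 3 or normal replicate 4 (adjusted p 0.0739, 0.0892 and 0.0752). Of the 5603 transcripts with a locus number other than their gene's, 0 were called by limma, with 372 (6.64%, against 6.58% of all pairs) at an unadjusted p under 0.05. The smallest p of a lower ratio was that of MSTRG.66396.1, 346 bp inside Car2, the carbonic anhydrase that osteoclasts use to acidify bone and red cells also express. It had 22.4, 14.5, 13.3 and 17.8 FPKM in hyperlipidemic bone, against 140, 27.3, 97.5 and 32.3 FPKM in normal bone, with no overlap, while Car2 had 365, 280, 474 and 448 FPKM against 589, 220, 284 and 279 FPKM. The log2 change of the ratio was -2.09 (adjusted p = 0.107), and it passed the threshold under median-of-ratios scaling (0.0403) and quantile normalization (0.0496). MSTRG.10366.1, inside the leukocyte integrin gene Itgad, had 2.41, 3.47, 3.07 and 4.51 FPKM in hyperlipidemic bone, against 19.6, 10.8, 10.7 and 14.4 FPKM in normal bone, with no overlap (log2 change of the ratio -2.07, adjusted p = 0.142). The Itgad gene values overlapped, at 15.4 to 18.2 FPKM in hyperlipidemic and 13.2 to 21.8 FPKM in normal bone.

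Within the groups the lncRNA and its gene varied together in most pairs. The median Pearson r across the 8 libraries, after removal of group means, was 0.38 in 2552 pairs with a shared locus number, which may share fragments, and 0.16 in 5603 pairs with different numbers. Of the second kind 63.5% were above 0, with quartiles of -0.16 and 0.48. These points share library, depth and assembly, and the values are a description. The lncRNA mostly stayed below its gene: its mean FPKM, a value per length, was a median 22.4% of the gene's where numbers differed, and exceeded the gene's in 536 of 5843 pairs.

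**Figure D4:**
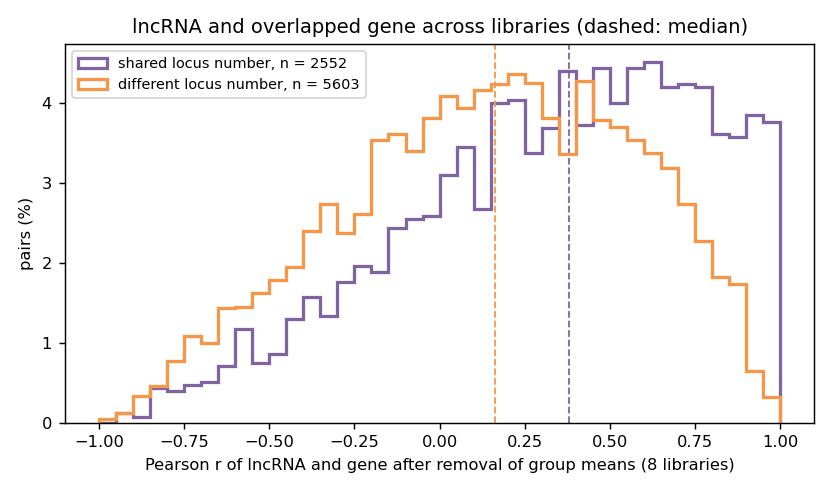
Distribution of Pearson r between an lncRNA and its overlapped gene over 8 libraries after removal of group means, as a percentage of pairs, for shared and different locus numbers; dashed lines mark the medians of 0.38 and 0.16. Both distributions reach from near -1 to near 1, and the shared pairs pile up towards 1.

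A few genes carried many transcripts. Runx1, a transcription factor of blood stem cells and megakaryocytes, held 39, Ube2h, a ubiquitin-conjugating enzyme known in red cell maturation, 31, and Ebf1, the factor that commits cells to the B lineage, 29. Prkcb had 25, Nedd4l 24, Ate1 22, Specc1 21 and RT1-T24-1 21. Of the 39 Runx1 transcripts 23 had a log2 change above 0, with a median of 0.26. Their summed level was 78.6 ± 13.3 FPKM in hyperlipidemic and 78.2 ± 14.8 FPKM in normal bone (SD, n = 4 each). The Runx1 gene had 5.98 ± 0.963 and 4.75 ± 1.42 FPKM in the same groups. Such sums over transcripts of different length are not on the scale of a single gene's FPKM. Of the 39, 18 share the locus number of Runx1 and may share its fragments. Of the 31 Ube2h transcripts 26 lay above 0 (median 0.70), while the gene had a log2 change of 0.08. Under quantile normalization the medians of Runx1, Prkcb, Ate1 and RT1-T24-1 fell below 0 (-0.21, -0.52, -0.05 and -0.12), while Ube2h, Nedd4l and Specc1 stayed above 0. None of the transcripts of these 8 genes was called (smallest adjusted p 0.521, in Nedd4l).

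Ebf1 was the gene of these 8 with a median below 0. Of its 29 transcripts, all inside the gene and with locus numbers of their own, 10 lay above 0 and 19 below, with a median log2 change of -0.36. The median was -0.52 under median-of-ratios scaling, -0.54 under quantile normalization and -0.74 without normal replicates 1 and 4. Summed, they had 77.6, 47.8, 109 and 106 FPKM in hyperlipidemic bone, against 117, 85.6, 224 and 106 FPKM in normal bone. The Ebf1 gene had 5.59, 5.37, 10.8 and 12.8 FPKM in hyperlipidemic bone, against 18.0, 14.4, 17.1 and 16.8 FPKM in normal bone, with no overlap (log2 change -0.95, adjusted p = 0.225). MSTRG.17215.1, its most abundant transcript (chr10:23741310-23742637), had 5.80, 3.27, 11.7 and 11.8 FPKM in hyperlipidemic bone, against 14.6, 8.93, 23.5 and 15.1 FPKM in normal bone. Its groups overlapped (log2 change -1.02 ± 0.60, adjusted p = 0.690), and its r with the gene after removal of group means was 0.85. The B cell gene list summed to 69.4 to 143 FPKM in hyperlipidemic and 148 to 192 FPKM in normal bone, with none of its 16 genes called.

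**Figure D5:**
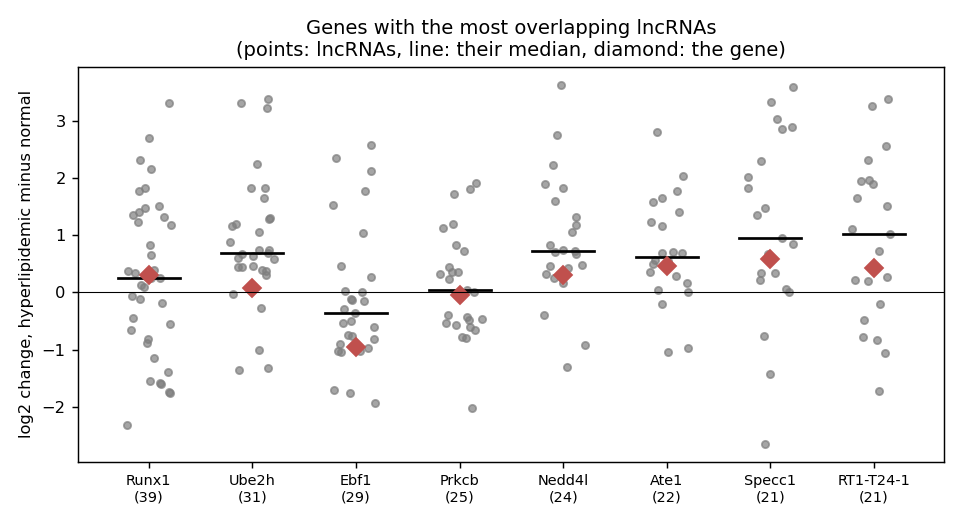
log2 change (hyperlipidemic minus normal) of every tested lncRNA over the 8 genes with the most such transcripts (points), their median (line) and the gene itself (diamond); numbers under the names count the transcripts. Ebf1 has the lowest median, -0.36, and its gene lies at -0.95, while points of each gene fall on both sides of 0.

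The overlapping transcripts were also grouped by what the gene beneath is known for. None was called in any of these groups, and each count is set against the 69.0% of all lncRNAs above 0. Over erythroid genes 33 of 47 transcripts lay above 0 (median 0.38). Over megakaryocyte genes it was 32 of 50 (median 0.27), over blood transcription factors 50 of 85 (0.26), and over adipocyte and lipid genes 10 of 11 (0.70). The megakaryocyte and blood transcription factor groups both hold the same 39 Runx1 transcripts, of which 23 lay above 0, so they are not separate sets. Over B cell genes 17 of 46 lay above 0 (median -0.32), over osteoblast and bone matrix genes 8 of 17 (-0.45), over neutrophil genes 4 of 12 (-0.70) and over osteoclast genes 8 of 12 (0.63). Ebf1 alone accounted for 29 of the 46 B cell transcripts, 10 of them above 0. The 4 groups with the fewest transcripts were T and NK cell genes (1 of 3 above 0), skeletal muscle (0 of 3 tested), macrophage and mast cell (6 of 7) and stromal and endothelial (5 of 7), and no transcript lay over a chondrocyte gene. Over known non-coding RNA genes 20 of 33 tested lay above 0 (0.20). Hyperlipidemic and normal values did not overlap in 4 of 47 erythroid transcripts, 1 of 11 adipocyte and lipid and 1 of 85 blood transcription factor transcripts, which were higher (2.93% of all lncRNAs), and in 2 of 12 neutrophil, 1 of 12 osteoclast, 1 of 3 muscle and 1 of 85 blood transcription factor transcripts, which were lower (0.766% of all). The other groups had none. The group medians differed between scalings and between sets of libraries. Under quantile normalization, where all lncRNAs had a median of 0.26, the erythroid median was 0.30 (28 of 47 above 0), that of B cell genes -0.54 (11 of 46) and that of osteoblast genes -0.87 (4 of 17), and known non-coding RNAs turned to -0.29. Without normal replicates 1 and 4, where all lncRNAs had a median of 0.09, the erythroid median was 0.63, the B cell median -1.07 and the osteoblast median -1.11, and those of osteoclast genes, blood transcription factors, known non-coding RNAs, megakaryocyte genes and stromal and endothelial genes turned below 0 (-0.39, -0.24, -0.21, -0.05 and -0.06). Of the adipocyte and lipid transcripts 6 of 11 then lay above 0 (median 0.15).

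Within the bone cell groups, transcripts over lineage transcription factors were high in 1 normal library. MSTRG.129064.6, over Runx2, the master regulator of osteoblasts, had 3.22, 1.53, 5.12 and 1.32 FPKM in hyperlipidemic bone, against 25.8, 1.67, 0 and 0 FPKM in normal bone, highest in normal replicate 1. The same library was highest for the transcript inside Nfatc1, the osteoclast transcription factor: MSTRG.59001.1 had 2.08, 2.39, 0 and 0 FPKM in hyperlipidemic bone, against 36.9, 4.01, 0 and 0 FPKM in normal bone. The adjusted p was 0.690 for the Runx2 transcript and 0.780 for the Nfatc1 transcript.

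Of the erythroid overlaps, MSTRG.98320.1 over Hemgn, a nuclear protein of red cell precursors, was the most abundant, with 73.7, 13.7, 115 and 51.3 FPKM in hyperlipidemic bone, against 163, 23.3, 53.2 and 42.8 FPKM in normal bone. MSTRG.25974.1, inside the transferrin receptor gene Tfrc, had 0.388, 11.1, 0.959 and 0.628 FPKM in hyperlipidemic bone, against 80.2, 11.5, 0.166 and 20.8 FPKM in normal bone. Tfrc itself had 145, 128, 178 and 173 FPKM in hyperlipidemic and 69.6, 44.0, 154 and 71.1 FPKM in normal bone, and r between MSTRG.25974.1 and the gene after removal of group means was -0.72. The 2 transcripts over Tfrc pointed in opposite directions. MSTRG.25974.1 had a log2 change of -2.57, the other one 2.89 and the gene 1.01, and none of the 3 was called. Among lipid genes, MSTRG.98655.1, inside the cholesterol exporter gene Abca1, had 1.09, 0.390, 11.3 and 0.142 FPKM in hyperlipidemic bone, against 0, 0, 0.489 and 0 FPKM in normal bone. MSTRG.93572.1, inside Pparg, the adipocyte nuclear receptor, had 1.79, 0.870, 0.223 and 1.46 FPKM in hyperlipidemic bone, against 0.868, 2.03, 6.31 and 1.65 FPKM in normal bone. Groups overlapped for MSTRG.98320.1, MSTRG.25974.1, MSTRG.98655.1 and MSTRG.93572.1 (adjusted p of at least 0.690). Of known non-coding RNAs, Tug1 was represented by the annotated transcript ENSRNOT00000076420, with 13.0, 8.50, 15.1 and 14.7 FPKM in hyperlipidemic bone, against 11.5, 6.75, 13.3 and 8.32 FPKM in normal bone (log2 change 0.37, adjusted p = 0.765). Of 12 transcripts over Pvt1, a long non-coding neighbour of Myc, 10 were tested and 9 lay above 0.

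How far abundance was concentrated in few transcripts differed between libraries. Without a limit per locus, the 10 most abundant held 19.4%, 49.0%, 10.7% and 13.0% of the class's FPKM in hyperlipidemic libraries 1 to 4. In normal libraries 1 to 4 they held 26.9%, 54.9%, 11.5% and 21.1%. The most abundant, MSTRG.28142.1 (chr12:13699977-13719427), covers Actb, the cytoplasmic beta-actin gene, under another locus number. It had 2971, 2343, 2559 and 2786 FPKM in hyperlipidemic bone, against 6642, 3836, 3438 and 3468 FPKM in normal bone. Its groups did not overlap, yet the log2 change of -0.65 ± 0.41 had an adjusted p of 0.690 and its sign turned under quantile normalization (0.13). Actb itself had 1687, 1480, 1427 and 1520.5 FPKM in hyperlipidemic bone, against 1473, 2067, 1097 and 1560 FPKM in normal bone, with overlapping groups. Of the 10 most abundant transcripts, taken as 1 per locus, 4 rested on 1 library. MSTRG.114521.3, reaching into Sdc2, a cell surface proteoglycan gene, had 10278 FPKM in normal replicate 2 and was listed at 0 in the other 7 libraries. Its sister transcripts MSTRG.114521.4 and MSTRG.114521.7 had their high values elsewhere, 2645.5 FPKM in hyperlipidemic replicate 2 and 1959 FPKM in hyperlipidemic replicate 1. Of 36 transcripts above 100 FPKM in any library, 17 had over 90% of their FPKM in 1 library, 6 of them in normal replicate 2, 4 in normal replicate 1 and 4 in hyperlipidemic replicate 2. A pair of abundant transcripts passed the threshold when 1 library was left out. MSTRG.75484.1 over Fam13c had 0, 0.0859, 0 and 367 FPKM in hyperlipidemic bone, against 3.02, 293, 281 and 429 FPKM in normal bone (log2 change -6.82, adjusted p = 0.424), and an adjusted p of 0.00145 without hyperlipidemic replicate 4. MSTRG.20259.4, inside Tex14, had 18.0, 296, 39.7 and 27.2 FPKM in hyperlipidemic bone, against 170, 240, 163 and 225 FPKM in normal bone (log2 change -2.003, adjusted p = 0.554), and an adjusted p of 0.00149 without hyperlipidemic replicate 2. Across the alternatives tried, the adjusted p of these transcripts reached 0.817 and 0.878. Summed over its 2 lncRNAs, the Fam13c locus had 410, 444, 310 and 403 FPKM in hyperlipidemic bone, against 3.02, 452, 385 and 512 FPKM in normal bone (log2 change 1.59, adjusted p = 0.684). The Tex14 locus, summed over 3, had a log2 change of 0.03 (adjusted p = 0.982).

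Summed, the overlapping transcripts took 43.0% ± 11.3 of all lncRNA FPKM in hyperlipidemic and 38.1% ± 8.21 in normal bone (SD, n = 4 each). Without lncRNAs above 100 FPKM in any library the share was 63.1% ± 0.492 in hyperlipidemic and 62.5% ± 3.05 in normal bone. The SD was smaller in both groups without them.

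Among the genes beneath, 3581 averaged at least 0.5 FPKM, and 5 were higher and 0 lower in hyperlipidemic bone (limma, all genes fitted together; 20 of 13742 genes in the table, 0.146%, were higher, 171, 1.24%, lower and 1.39% called in either direction). At an unadjusted p under 0.05 stood 410 of the 3581 (11.4%, against 13.0% of all genes). The 5 called genes were Cdc42ep4 (a Cdc42 effector), Fhdc1 (a formin), Tal1 (the erythroid and stem cell transcription factor), Gclc (the rate-limiting enzyme of glutathione synthesis) and Rps15a (a ribosomal protein). Tal1 had 41.2, 29.5, 43.1 and 50.9 FPKM in hyperlipidemic bone, against 9.65, 20.3, 7.05 and 14.0 FPKM in normal bone (log2 change 1.69 ± 0.31, adjusted p = 0.0263). MSTRG.100970.8, inside Tal1 and of its locus, had 8.83, 6.47, 0 and 15.8 FPKM in hyperlipidemic bone, against 16.2, 6.27, 17.0 and 2.57 FPKM in normal bone, with overlapping groups and a log2 change of -1.42 (adjusted p = 0.690). Gclc had 25.02, 17.7, 32.9 and 29.8 FPKM in hyperlipidemic bone, against 9.33, 13.0, 10.0 and 6.46 FPKM in normal bone (log2 change 1.36 ± 0.27, adjusted p = 0.0371). MSTRG.123858.1, inside Gclc, had 2.20, 1.48, 4.78 and 4.93 FPKM in hyperlipidemic bone, against 0, 1.63, 0 and 0 FPKM in normal bone, with a log2 change of 3.91 (adjusted p = 0.554). Cdc42ep4, Fhdc1 and Rps15a had log2 changes of 1.51, 1.62 and 1.15 (adjusted p 0.0109, 0.0195 and 0.0375), and the transcripts over them had adjusted p between 0.690 and 0.996. Leaving out single libraries gave between 0 higher genes, without hyperlipidemic replicate 4, and 12, without normal replicate 3. Without hyperlipidemic replicate 1 or 3 or normal replicate 4 it was 1.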

How the data were processed

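RNA from bone around implants was sequenced after removal of ribosomal RNA (3 µg of RNA, dUTP strand marking, 150 bp paired reads), per the labels' protocols. The submitters' processing notes name HISAT2 2.1.0, StringTie 1.3.3b, bcl2fastq 1.8.4 and Rnor_6.0. The authors deposited FPKM values per lncRNA and per gene, normalised for length and library, with a log2 fold change, a p-value and a q-value per row, from a test that no source used here names. No read counts were used, so depth is unknown and values carry no counting intervals. The deposited spans, without strand or exons, were overlapped at 1 bp or more, so the planned split by strand was not possible. An lncRNA was paired with the named gene of longest overlap.

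Values were taken as log2(FPKM + 0.1) for lncRNAs (mean of at least 0.1 FPKM) and log2(FPKM + 1) for genes (mean of at least 0.5 FPKM), and fitted with limma 3.58.1 (empirical Bayes with a trend, R 4.3.3) across each whole table, with Benjamini-Hochberg adjustment and a threshold of 0.05. A log2 change is hyperlipidemic minus normal on that scale. It understates ratios between low values above 0, and where a group is at or near 0 its size depends on the pseudocount. The log2 change of MSTRG.97162.3, for example, was 4.14 with a pseudocount of 1 and 7.66 with 0.01. Ratios were fitted as the difference of the 2 log values. Library measures had a two-sided exact permutation test, enumerated over the 70 assignments of labels (Python 3.11.15, numpy 2.4.6). The fits were tried on simulated data with normally distributed noise, and success was required only at noise below that measured. Such noise does not imitate the many values at 0, so the simulation does not show how the fits perform here. Named transcripts were, 1 per locus and list, the called ones filled up to 10 in each direction by smallest p, the 10 most abundant, up to 4 per gene group, the 5 smallest ratio p in each direction, and up to 10 over known non-coding RNAs. Transcripts sharing a locus or a microRNA with these, those over called genes, and loci shown in detail were named after their values were seen. The members and lists were chosen with earlier results of these data known. Alternatives changed the pseudocount, filter, scaling, variance trend, replicate block, overlap definition and libraries. Those without normal replicates 1 and 4, summed by locus, or with transcripts above 0 in all 8 libraries were chosen after seeing the data. The transcript called lower and some transcripts that the naming rule gives are not reported here.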

Additional observations from a re-analysis of the deposited data

Results flagged for a closer look

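Within a group of 4 libraries, 28 values of named transcripts lay far from the other 3 by Dixon's test on log2(FPKM + 0.1). Chance flags about 1 in 20 groups, and a group with 3 libraries at 0 is flagged by any value above 0 in the remaining one.

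In hyperlipidemic bone the single high values were 5175 FPKM of MSTRG.28955.1 over Wbscr27 and 3133 FPKM of MSTRG.78315.1 over Fam73b, both in replicate 2, 0.139 FPKM of MSTRG.55254.1 over Ero1b in replicate 2, 367 FPKM of MSTRG.75484.1 over Fam13c in replicate 4, 0.0824 FPKM of MSTRG.96028.1 over Bicd1 in replicate 4, 24.4 FPKM of MSTRG.27985.1 over Rn60_12_0123.1 in replicate 3, 11.6 FPKM of MSTRG.21579.1 over Itgb3 in replicate 3, 4.55 FPKM of MSTRG.83684.6 over Pank2 in replicate 1 and 0.945 FPKM of MSTRG.70462.1 over S100a9 in replicate 1. The single low values were 0 FPKM of MSTRG.131064.1 over Wdfy1 in replicate 3, 3.97 FPKM of MSTRG.24495.1 over Runx1 in replicate 2 and 0.194 FPKM of MSTRG.27951.1 over Flt1 in replicate 2.

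In normal bone, replicate 2 was the library apart in 10 transcripts. It was the high one at 10278 FPKM for MSTRG.114521.3 over Sdc2, 1907 FPKM for Ero1b, 8.91 FPKM for MSTRG.88044.2 over Gatad1, 2.44 FPKM for MSTRG.71894.1 over Vcam1, 1.84 FPKM for MSTRG.25138.3 over Naa50, 0.964 FPKM for MSTRG.15509.1 over Prdx3, 0.564 FPKM for MSTRG.98721.1 over Slc44a1, 0.107 FPKM for MSTRG.50599.1 over Fam193b and 0.0138 FPKM for MSTRG.52831.2 over Fam65b, and the low one at 2.16 FPKM for MSTRG.4360.1 over Cd177. Replicate 3 was apart at 20.0 FPKM for S100a9, 17.4 FPKM for MSTRG.17216.1 over Ebf1 and 0.489 FPKM for MSTRG.98655.1 over Abca1. Replicate 1 was apart at 6642 FPKM for MSTRG.28142.1 over Actb and at 3.02 FPKM, the low value, for Fam13c. Replicate 4 was apart at 0 FPKM for MSTRG.21199.1 over Acly.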

How the results depend on the processing

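The count of called transcripts (3 higher, 1 lower) moved with the processing. Higher calls numbered 1 with a pseudocount of 0.01, 0 with no filter, 1 under median-of-ratios scaling, 5 under quantile normalization, 0 without the variance trend and 1 to 5 with single libraries left out. Lower calls numbered 2 with a pseudocount of 1, 3 under quantile normalization, 2 when summed by locus, 0 with at least 50% of the span inside the gene, 0 without normal replicates 1 and 4 and 1 to 3 with single libraries left out. Ratio calls (1 higher, 0 lower) numbered 0 higher with a pseudocount of 1, with no trend and with at least 50% of the span inside, 2 under quantile normalization, 3 without normal replicates 1 and 4 and 0 to 4 with single libraries left out; lower ones numbered 1 with no filter and under median-of-ratios scaling, 3 under quantile normalization and 0 with single libraries left out. Higher genes (5) numbered 2 with no filter, 8 under quantile normalization and 0 to 12 with single libraries left out, and lower genes (0) numbered 1 under the stricter filter and median-of-ratios scaling, 2 under quantile normalization and 0 to 2 with single libraries left out. Of the transcripts called higher, MSTRG.52637.1 was called in 14 of 17 alternatives, MSTRG.97162.3 in 10 and MSTRG.25138.3 in 5. The cause of these shifts was not tested.

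Deviations of same-numbered libraries had low correlations (-0.0188 to 0.0716 for lncRNAs and 0.0107 to 0.129 for genes). The libraries numbered 2 matched each other best in lncRNAs and genes, those numbered 1 in genes only, and those numbered 3 and 4 in neither. The labels do not say that a number pairs libraries, and a pairing was not excluded. With the replicate numbers as a block, transcripts called were 2 higher and 2 lower, 3 of the main 4 among them. Ratios called were then 1 higher and 0 lower, and genes 0.

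The median log2 change of 0.78 was 0.30 with a pseudocount of 1, 1.34 with 0.01, 0.28 under quantile normalization, 0.05 without normal replicates 1 and 4 and 0.21 over transcripts above 0 in all libraries, and 0.48 to 1.14 with single libraries left out. The share of lncRNA FPKM was 63.1% in hyperlipidemic and 62.5% in normal bone without lncRNAs above 100 FPKM, and 30.8% and 23.6% in the same groups with at least 50% of the span inside the gene. The median residual r of 0.23 was 0.40 where both partners were above 0 in all libraries. Of 574 values of 34 named transcripts, 535 kept their direction and side of the threshold and 3 reversed: MSTRG.28142.1 over Actb was 0.13 under quantile normalization, and MSTRG.11917.4 over Rn60_1_2212.4 (1.11) was -1.30 to 2.90 with single libraries left out, the lowest without normal replicate 4, and -2.25 without normal replicates 1 and 4. Without read counts, the depth behind values near 0 cannot be given.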
